A study of Mus musculus with 3 samples.

Results

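Hair placode cells of the mouse embryo that carried transcripts of both Shh and Sox9 were compared with placode cells that carried only 1 of these genes. The hair placode is a local thickening of the embryonic epidermis from which a hair follicle grows. Sonic hedgehog, encoded by Shh, is a secreted signal made by cells of the placode. It binds the receptor Patched, which frees Smoothened and lets Gli transcription factors act, and Ptch1 and Gli1 are themselves standard targets of the signal. The transcription factor SOX9 marks progenitors of the follicle, and in the growing bud Shh and Sox9 are known for marking different cells: Shh the cells with high Wnt activity at the leading edge, and Sox9 their neighbours with lower Wnt activity that respond to the Shh signal. Cells in which both transcripts are found could therefore lie between these populations, be better sampled cells of either one, or have a profile of their own.

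Cells came from dorsal skin epithelium of wild-type (WT) embryos of strain C57BL/6JOlaHsd at embryonic stage E14.5, with the sheets of several littermates pooled per sample, so that a library is a pool of animals and not 1 embryo. All were unmanipulated; no gene was deleted and no agent was given. The 2 placode-enriched libraries, stated to be biological replicates, hold live cells sorted for MAdCAM-1, a surface adhesion molecule of placode cells, and 1 further library holds the total epithelium without that sort. They contained 1511, 1571 and 1601 cells, with medians of 21652, 23419 and 21977 unique molecular identifiers (UMIs, each standing for 1 captured RNA molecule) per cell.

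A cell was counted as a placode cell when the summed UMIs of Dkk4, Edar, Fgf20, Bmp2 and Ltb, here called the placode score, came to 4 or more per 10000 UMIs of the cell, and those of the keratinocyte differentiation genes Krt1, Krt10 and Krtdap to less than 5. In the placode-enriched libraries 1 and 2 this gave 539 and 559 cells. Among them 90 and 110 had at least 1 UMI of both Shh and Sox9 and are called double-positive, 200 cells of 1098 placode cells and of 4683 cells in the series. Cells with Shh alone numbered 240 and 253, cells with Sox9 alone 73 and 58, and cells with neither 136 and 138. The pooled single-positive cells, 313 and 311, are therefore mostly Shh-only cells, which weights any comparison with them toward that class. Shh (chromosome 5, 28456815 to 28467256, minus strand, GRCm38) and Sox9 (chromosome 11, 112782224 to 112787760, plus strand) are protein-coding genes. By the same rule the total epithelium library gave 35 placode cells and 2 double-positive cells, too few to describe as a class.

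The 10 genes of the rule chose the cells, so their levels describe the classes and support nothing. Placode markers that the rule did not use were higher inside the gate than in cells of the same libraries with a lower placode score. The homeobox factor Lhx2, expressed in the early follicle, stood at 36.2 and 35.1 CPM (UMI counts of the class scaled to a common library total) inside and at 3.45 and 4.63 outside. The sorting antigen gene Madcam1 was at 69.6 and 60.9 CPM inside against 21.5 and 22.1, and the zinc finger factor Trps1 at 131 and 146 against 49.4 and 57.7. Epcam, an epithelial adhesion gene, was present throughout at 584 and 549 CPM inside the gate. All 4 were higher inside than outside the gate in both libraries. The forkhead factor Foxi3, another early placode gene, was low everywhere, at 2.20 and 1.80 CPM inside.

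Counted on all UMIs, double-positive cells held less of each defining transcript than the cells with 1 of them. Shh was at 120 and 130 CPM in double-positive cells and at 174 and 158 in Shh-only cells. Sox9 was at 77.2 and 67.4 CPM in double-positive cells and at 82.6 and 114 in Sox9-only cells. Both libraries gave the same order for both genes. With every cell thinned to 10000 UMIs and the classes taken again, Shh was at 188 and 209 CPM in double-positive cells. Shh-only cells were then at 246 and 207 CPM, so that the order for Shh was lost in library 2. Sox9 was then at 130 and 123 CPM in double-positive and 151 and 163 in Sox9-only cells. Detection often rested on a single molecule: 37 and 37 double-positive cells had 1 Shh UMI, 53 and 79 had 1 Sox9 UMI, 22 and 24 had 1 of each, and 22 and 18 had at least 2 of each. The highest counts in a double-positive cell were 14 and 17 UMIs of Shh and 8 and 8 of Sox9.

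The classes also differed in the placode score, which the rule used only as a lower limit. Its median per 10000 UMIs was 9.59 and 10.8 in double-positive cells, 15.1 and 13.2 in Shh-only cells, 6.86 and 7.60 in Sox9-only cells and 9.91 and 8.70 in cells with neither gene. Dkk4, a secreted Wnt antagonist made in placodes, was at 550 and 562 CPM in double-positive cells, 877 and 771 in Shh-only cells and 367 and 326 in Sox9-only cells. Bmp2, a secreted inhibitor of neighbouring placodes, was at 133 and 175 CPM in double-positive, 233 and 250 in Shh-only and 79.4 and 89.98 in Sox9-only cells. Fgf20, a growth factor that acts on the underlying dermis, was at 110 and 94.3, 165 and 143, and 50.8 and 65.8 CPM in the same order. On these 3 genes of the rule double-positive cells lay between the single-positive classes, but so did cells with neither gene. The latter had 735 and 416 CPM of Dkk4, 162 and 174 of Bmp2 and 119 and 88.4 of Fgf20. The order was therefore not particular to double-positive cells. The ectodysplasin receptor Edar was at similar levels in double-positive, Shh-only and Sox9-only cells, at 102 and 93.9, 100.5 and 107, and 104 and 98.3 CPM. Ltb, which encodes the cytokine lymphotoxin beta, was at 393 and 414 CPM in double-positive, 472 and 389 in Shh-only and 482 and 499.8 in Sox9-only cells, below both classes in library 1 and between them in library 2.

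The gate has a threshold, and cells were close to it on both sides. Cells with a placode score from 3 up to 4, just outside, numbered 85 and 69, of which 10 and 14 had both genes. Cells from 4 up to 5, just inside, numbered 62 and 63, of which 14 and 7 had both. Among double-positive cells 28.9% and 19.1% had a score under 6, against 8.33% and 12.6% of Shh-only and 43.8% and 37.9% of Sox9-only cells.

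Double-positive cells were slightly deeper than Shh-only cells in both libraries and not consistently deeper than Sox9-only cells. Their median depth was 21719.5 and 21376.5 UMIs, with 4533 and 4518 genes per cell. Shh-only cells had 18950 and 20666 UMIs and 4282 and 4353 genes. Sox9-only cells had 20770 and 22418 UMIs and 4503 and 4495.5 genes, so that they lay below double-positive cells in library 1 and above them in library 2. Cells with neither gene had 20032.5 and 19569.5 UMIs and 4317 and 4173 genes. The rule counts a single UMI, so depth takes part in the choice of class, and these medians are a description.

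The shares of cells with a Sox9 UMI had overlapping intervals in cells with and without a Shh UMI. Overlap of intervals does not show that shares are equal, and their difference was not tested. A Sox9 UMI was found in 27.3% (exact 95% binomial interval 22.5 to 32.4) of Shh-positive and 34.9% (28.5 to 41.8) of Shh-negative placode cells of library 1, and in 30.3% (25.6 to 35.3) and 29.6% (23.3 to 36.5) of those of library 2. Intervals here cover counting error only. In the shallowest tertile of the cells the shares were 19.1% and 29.2% in library 1 and 24.3% and 18.1% in library 2, and in the deepest tertile 36.8% and 35.1%, and 31.6% and 36.2%. The order of the pair thus changed between libraries and depths, and within each depth class the intervals overlapped. After thinning every cell to 10000 UMIs and taking the classes again, the shares were 18.1% against 20.8% and 16.5% against 23.1%, and 43 cells were double-positive in each library. The share was then lower in Shh-positive cells of both libraries.

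**Figure D1:**
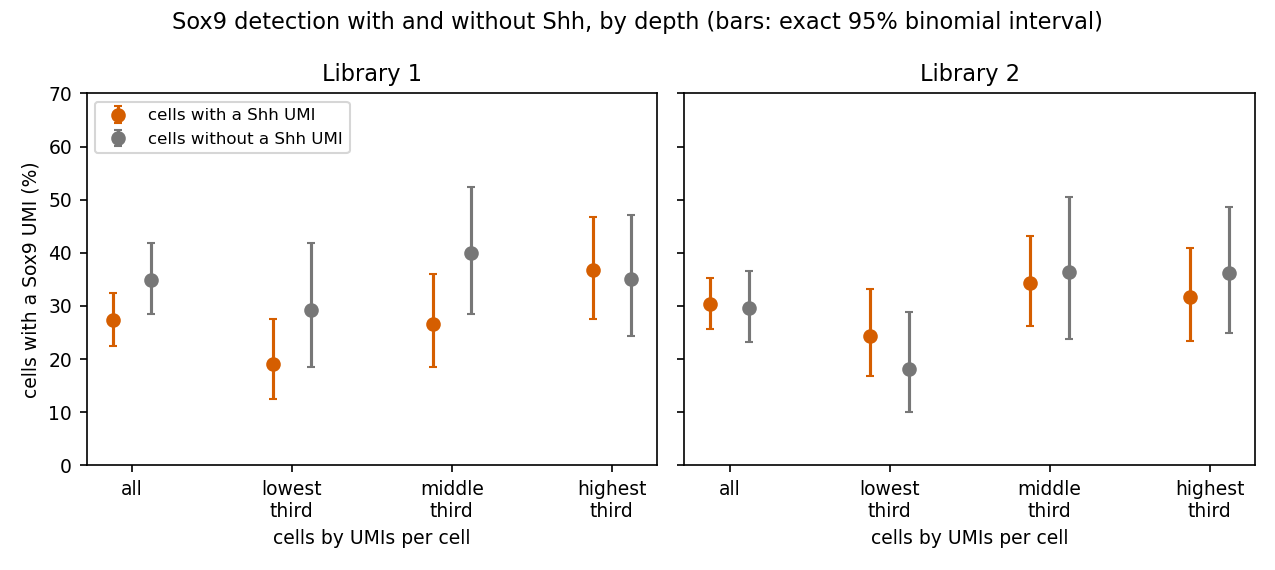
Share of placode cells with a Sox9 UMI (vertical axis, percent) among cells with and without a Shh UMI, for all cells and for tertiles of depth, in each placode-enriched library; bars are exact 95% binomial intervals. The intervals of the paired points overlap in every depth class, with overall shares of 27.3% and 34.9% in library 1 and 30.3% and 29.6% in library 2.

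Free RNA and merged droplets could put a transcript into a class, and the values that bear on them are as follows. In cells of the same sorted libraries with a low placode score and the differentiation keratins at 5 or more per 10000, 10.9% (4.11 to 22.2) and 10.2% (3.82 to 20.8) had a Shh UMI, at 4.00 and 3.27 CPM and deeper medians of 27870 and 30559 UMIs. Placode cells had 61.2% and 64.9%, at medians of 19966 and 20809 UMIs, above that background. The same keratin-rich cells had a Sox9 UMI in 72.7% and 61.0%, more than the 30.2% and 30.1% of placode cells, so they give no background for Sox9. In the total epithelium library 17.1% (15.0 to 19.3) of the 1248 cells of that kind had a Sox9 UMI. The doublet caller marked 2 and 0 double-positive cells, but with 7 and 2 marked cells per library it cannot be said to have worked. The cells in the top 5% of UMIs of their library made up 3.33% and 2.73% of double-positive cells, 2.92% and 1.98% of Shh-only and 0% and 1.72% of Sox9-only cells. No barcode of a double-positive cell occurred in another library, where 1 or 2 barcodes were shared between any pair. The part of free RNA in the classes was not tested.

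To place double-positive cells between the single-positive classes, genes were chosen in 1 library by a ratio of at least 2 between Shh-only and Sox9-only sums, and the double-positive level was read in the other library. The rule's genes were left out. Lists chosen in library 2 held 210 Shh-side and 108 Sox9-side genes, those chosen in library 1 held 169 and 106, and 40 and 15 genes were in both. With Sox9-only cells set at 0% and Shh-only cells at 100% on the log2 ratio of the summed sides, double-positive cells lay at 61.0% in library 1 and 71.0% in library 2. Pooled single-positive cells lay at 74.5% and 80.1%, closer to the Shh-only end, and cells with neither gene at 40.8% and 47.1%. An intermediate position was thus shared with cells in which neither gene was detected and was not particular to double-positive cells.

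The position read from summed genes lay between the single-positive classes on both sides of the ratio but moved with thinning. On the Shh-side genes alone double-positive cells lay at 65.3% and 80.9%, and on the Sox9-side genes alone at 57.6% and 61.2%. With a gene ratio of 1.5 the position was 60.8% and 74.0%. With cells thinned to 10000 UMIs it was 37.0% in library 1 and 60.6% in library 2, from 43 double-positive cells each, so that the nearer end in library 1 changed. Gene by gene, 127 of the 169 Shh-side genes chosen in library 1 kept their order between the single-positive classes in library 2, and double-positive cells lay between the classes for 66 of these 127, above both for 43 and below both for 18. Of the 210 Shh-side genes chosen in library 2, 146 kept their order in library 1, with double-positive cells between for 84, above for 37 and below for 25. Of the 106 Sox9-side genes chosen in library 1, 73 kept their order in library 2, with double-positive cells between for 31, above for 15 and below for 27. Of the 108 chosen in library 2, 78 kept their order in library 1, with 43 between, 15 above and 20 below. Over all 10262 genes tested 57.2% had the same order of the single-positive classes in both libraries. The share between the classes in 1 library was not taken over all genes. These gene counts therefore have no background and do not show an intermediate level gene by gene.

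**Figure D2:**
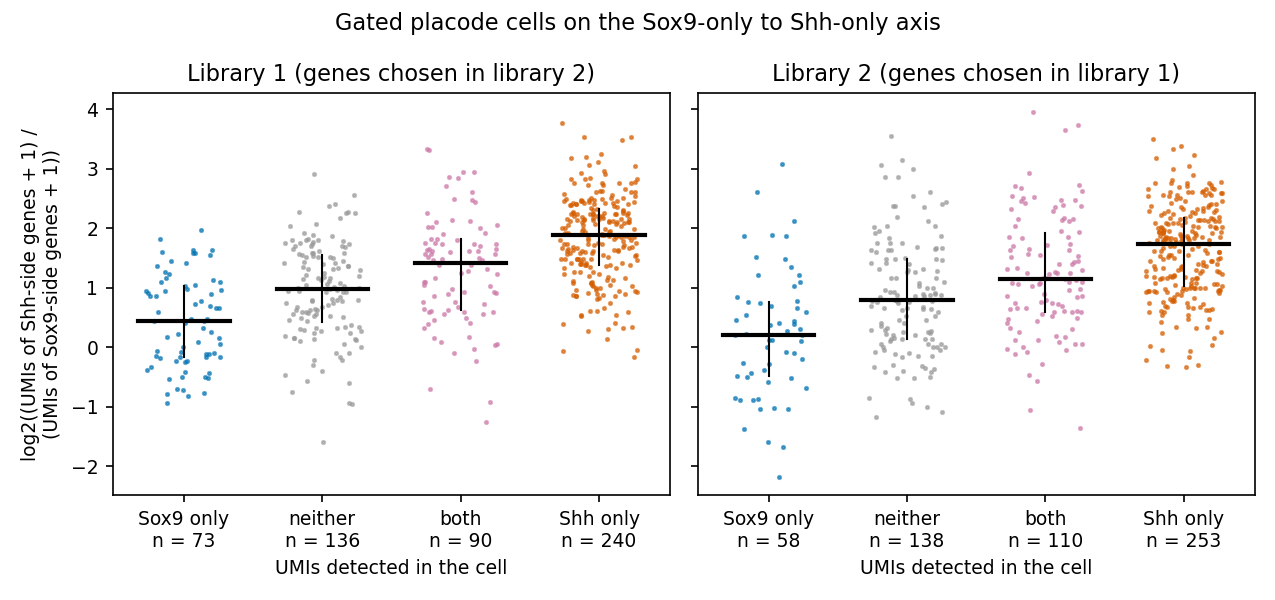
Each point is a placode cell, placed (vertical axis) by the log2 ratio of its UMIs of Shh-side genes to those of Sox9-side genes, each plus 1, with genes chosen in the other library; columns are the classes, thick lines medians and thin lines quartiles. Medians of double-positive cells, 1.42 and 1.15, lie between those of Shh-only cells, 1.89 and 1.73, and Sox9-only cells, 0.445 and 0.213, and the points of all classes overlap.

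Cell by cell, double-positive cells were spread broadly between and over the single-positive classes. Their median on the log2 axis was 1.42 in library 1 and 1.15 in library 2, with SDs over cells of 0.912 and 0.983. Shh-only cells had medians of 1.89 and 1.73 with SDs of 0.724 and 0.772, and Sox9-only cells 0.445 and 0.213 with SDs of 0.764 and 1.07. Among double-positive cells 23.3% and 29.1% lay above the Shh-only median and 15.6% and 15.5% below the Sox9-only median.

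Within the double-positive class, without thinning, cells with more Shh lay nearer the Shh-only end and cells with more Sox9 nearer the Sox9-only end. The 35 and 40 cells with 3 or more Shh UMIs had medians of 1.73 and 1.54, and the 37 and 37 cells with 1 Shh UMI had 1.04 and 0.722. Cells with 1 Sox9 UMI had medians of 1.61 and 1.26, against 1.09 and 0.763 for those with 2 or more. The 20 and 16 cells with more Sox9 than Shh UMIs lay at 0.814 and 0.622. The single-positive classes had the same order, so it was not particular to double-positive cells. Shh-only cells with 3 or more Shh UMIs had medians of 2.14 and 1.93, against 1.48 and 1.37 with 1. Sox9-only cells with 2 or more Sox9 UMIs had 0 and -0.103, against 0.539 and 0.75 with 1. Neither Shh nor Sox9 is counted in the axis, and the genes came from the other library, but UMI counts of Shh and Sox9 also grow with depth. With cells thinned to 10000 UMIs, those with 3 or more Shh UMIs stayed above those with 1 in both libraries. Medians were 0.599 and 1.02 in 8 and 14 cells, against -0.058 and 0.478 in 26 and 21 cells. The 9 and 8 cells with 2 Shh UMIs had 0 and 1.28, in library 2 above the cells with 3 or more. The order by Sox9 turned in library 1, where 32 cells with 1 Sox9 UMI had a median of 0.017 and 11 cells with 2 or more had 0.152, and held in library 2, with 0.89 in 34 cells and 0.527 in 9 cells. Thinned cells with more Sox9 than Shh UMIs, 8 and 5 in number, had medians of 0.151 and 0.17, against -0.115 and 0.615 in cells with equal counts.

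The summed UMIs of double-positive cells were then compared with those of the pooled single-positive cells over all genes. edgeR's quasi-likelihood test at an adjusted p of 0.05 called 20 of 10155 genes (0.197%), 12 (0.118%) higher and 8 (0.0788%) lower in double-positive cells, without the rule's genes. An unadjusted p under 0.05 was given to 633 genes (6.23%). The classes of a library share cells' origin and library preparation, and the library block takes out shifts common to all classes. The p-values rest on how far class differences disagree between the 2 libraries. The sums of cells with neither gene entered this fit, which left 2 residual degrees of freedom. None of the 20 calls was made by DESeq2 (35 genes at an unadjusted p under 0.05) or by edgeR without the library as a block (222 genes), and 2 of them were made with cells thinned to 10000 UMIs, where 4 genes were called in all.

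Of the 12 genes called higher, 9 were also called higher than in Shh-only cells and were not called against Sox9-only cells, among them Cldn10, Fgfr1, Pdgfa, Fry, Pfn2, Tuba1b, Wif1 and Cxcl10. Cldn10, a tight junction claudin, was at 17.9 and 21.4 CPM in double-positive cells, 7.30 and 8.23 in Shh-only and 24.1 and 16.6 in Sox9-only cells. The double-positive and Shh-only values did not overlap, and the log2 fold change against the pool was 0.89 (SE 0.21, edgeR adjusted p = 0.0122). Fgfr1, a fibroblast growth factor receptor, was at 61.7 and 53.5 CPM, against 32.2 and 37.1 in Shh-only and 72.4 and 56.0 in Sox9-only cells, with a log2 fold change of 0.46 (SE 0.12, edgeR adjusted p = 0.0451). Pdgfa, a growth factor for dermal cells, was at 522 and 487 CPM against 424 and 378 in Shh-only and 579 and 467 in Sox9-only cells (log2 fold change 0.23, SE 0.04, edgeR adjusted p = 0.0004). The pool is mostly Shh-only cells, so calls against it favour genes in which double-positive cells are far from that class. In Cldn10, Fgfr1 and Pdgfa double-positive cells stood at about the Sox9-only level.

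The same held for other genes of this group with smaller counts or changes. Fry was at 25.9 and 26.5 CPM against 13.0 and 13.4 in Shh-only and 28.6 and 18.1 in Sox9-only cells. The actin-binding profilin Pfn2 was at 242 and 246 CPM against 208 and 191, and 251 and 219. The tubulin Tuba1b was called with a log2 fold change of 0.10. The log2 ratio of Pfn2 was 0.15 in library 1 alone and 0.32 in library 2.

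A smaller set stood above both single-positive classes in both libraries. Wif1, a secreted Wnt inhibitor, was at 161 and 184 CPM in double-positive cells, 132 and 138 in Shh-only, 152 and 144 in Sox9-only cells and 80.3 and 83.5 in cells with neither gene (log2 fold change against the pool 0.32, SE 0.07, edgeR adjusted p = 0.00349). Nrarp, a feedback inhibitor and target of Notch signalling, was at 90.1 and 59.8 CPM against 59.4 and 54.7, and 50.2 and 48.4 (0.41, SE 0.10, edgeR adjusted p = 0.0427), and its log2 ratio was 0.66 in library 1 and 0.16 in library 2. Zfp750, a zinc finger factor of epidermal differentiation, was low, at 8.46 and 10.3 CPM against 3.85 and 4.39, and 2.54 and 3.02 (1.28, SE 0.33, edgeR adjusted p = 0.0427). The nuclear RNA Malat1 was the remaining gene, with a log2 fold change of 0.06. Of all genes tested 11.6% stood above both single-positive classes in both libraries, so such an order is common without a call.

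Cxcl10, an interferon-induced chemokine, had the largest fold change among the genes called higher and an uneven pattern. It was at 24.9 and 20.2 CPM in double-positive cells and 9.73 and 2.01 in Shh-only cells, but at 3.81 and 39.3 in Sox9-only cells. The log2 fold change against the pool was 1.34 (SE 0.21, edgeR adjusted p = 1.94e-07). Double-positive cells were above Sox9-only cells in library 1 and below them in library 2, and with thinned cells the fitted fold change was -6.63 and was not called.

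Genes called lower in double-positive cells included the simple-epithelium keratins Krt8 and Krt18. Krt8 was at 1.99 and 6.74 CPM in double-positive cells, 17.2 and 17.4 in Shh-only and 3.81 and 4.54 in Sox9-only cells (log2 fold change -1.67, SE 0.29, edgeR adjusted p = 1.78e-05). Its log2 ratio was -2.65 in library 1 and -1.11 in library 2. Its partner Krt18 was at 23.9 and 17.8 CPM against 36.9 and 38.4, and 14.6 and 16.6 (-0.69, SE 0.16, edgeR adjusted p = 0.0157), with log2 ratios of -0.39 and -0.92. Double-positive cells had about the Sox9-only level of both, a pattern that calls against a mostly Shh-only pool favour. These keratins also mark periderm and Merkel cells. The other 5 periderm markers fixed for the check summed mostly to Gjb2, at 203 and 190 CPM in double-positive and 169 to 238 in single-positive cells, with Krt6a at 0 and Krt4, Krt19 and Sprr1a at 0 to 2.77. Of the Merkel cell markers Atoh1, Isl1 and Piezo2 were at 0 to 1.27 CPM in every class and Sox2 at 3.02 to 8.46.

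Among the other genes called lower, 2 stood below both single-positive classes in both libraries. Of all genes tested 9.8% did so, and such an order is thus common without a call. Ncs1, a neuronal calcium sensor, was at 9.96 and 7.13 CPM against 18.4 and 13.9, and 18.4 and 15.9 (log2 fold change -0.95, SE 0.24, edgeR adjusted p = 0.0357). Fam134b, a receptor for turnover of the endoplasmic reticulum, was at 4.48 and 5.94 CPM against 16.2 and 15.4, and 7.62 and 9.07 (-1.42, SE 0.28, edgeR adjusted p = 0.000689). Akr7a5, an aldehyde reductase, lay between the classes at 129 and 134 CPM against 180 and 170, and 109 and 107. Cpsf4l had log2 ratios of -1.07 and -0.39 in the libraries, and the predicted gene Gm42418 -0.19 and -0.02.

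Dcn, which encodes the matrix proteoglycan decorin, was also lower, at 814 and 740 CPM in double-positive cells, 960 and 904 in Shh-only and 759 and 833 in Sox9-only cells (log2 fold change -0.23, SE 0.03, edgeR adjusted p = 1.86e-08). Dcn is a fibroblast marker. Of the 9 fibroblast markers 8 were in the table, with a summed level of 1332 and 1184 CPM in double-positive cells and 1240 to 1528 CPM in the single-positive classes. Col1a1 and Pdgfra were at 0 in double-positive cells and at most 0.635 CPM in the single-positive classes. Other members were present: Postn was at 383 and 321 CPM and Vim at 115 and 106 in double-positive cells. Col1a2 was at 13.9 and 12.7 CPM in double-positive, 5.47 and 8.23 in Shh-only and 14.0 and 20.4 in Sox9-only cells. Lum was at 3.98 and 3.57 and Col3a1 at 1.49 and 0.396 CPM in double-positive cells.

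**Figure D3:**
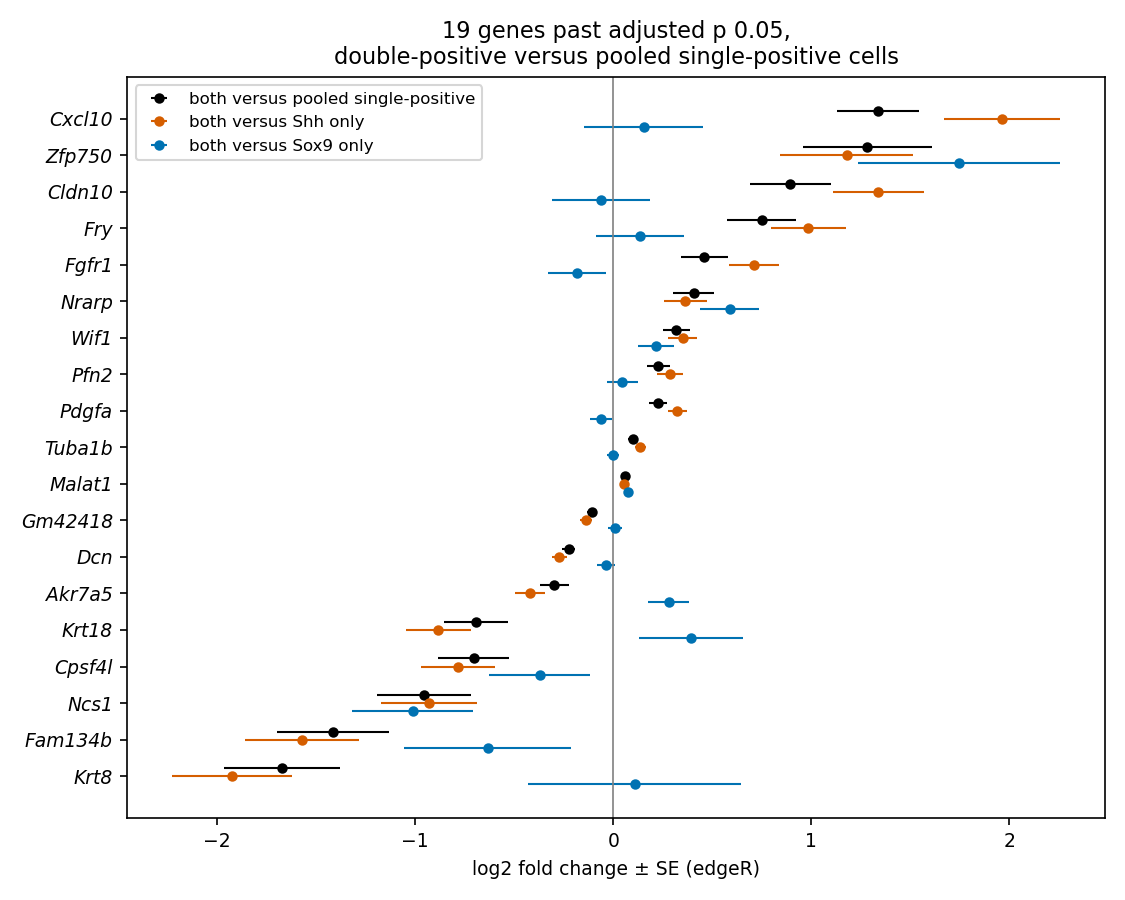
log2 fold changes with standard errors (horizontal axis) of 19 of the 20 genes called between double-positive and pooled single-positive cells, beside those of the same genes against Shh-only and against Sox9-only cells. Most called genes differ from the Shh-only class and lie near 0 against the Sox9-only class, as Cldn10 does at 1.34 and -0.06. The pool is mostly Shh-only cells, which favours calls of such genes. Wif1, Nrarp and Zfp750 lie above 0 and Ncs1 and Fam134b below 0 against both.

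Since the pool holds mostly Shh-only cells, each single-positive class was then compared on its own in a fit of the 4 classes with 3 residual degrees of freedom. Against Shh-only cells 50 of 10262 genes (0.487%) were called, 25 (0.244%) higher and 25 (0.244%) lower in double-positive cells. Against Sox9-only cells 147 (1.43%) were called, 85 (0.828%) higher and 62 (0.604%) lower. Between the single-positive classes themselves 483 (4.71%) were called, 236 (2.3%) higher and 247 (2.41%) lower in Shh-only cells. Unadjusted p-values under 0.05 numbered 729, 1060 and 1517 in the 3 comparisons. The numbers of cells differ between the classes, so these counts do not rank the distances, and the comparisons share sums. DESeq2 made 1 of the 50 calls against Shh-only cells, 33 of the 147 against Sox9-only cells and 100 of the 483, and edgeR without the library as a block made 0, 16 and 84.

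The Wnt pathway genes Sostdc1 and Sp5 differed between the single-positive classes, with double-positive cells in between. Sostdc1, a secreted antagonist of Wnt and BMP signals, was at 229 and 165 CPM in double-positive cells, 126 and 90.5 in Shh-only and 515 and 411 in Sox9-only cells, in the same order in both libraries. It differed from Shh-only by a log2 fold change of 0.85 (SE 0.08, edgeR adjusted p = 6.58e-18) and from Sox9-only by -1.25 (SE 0.07, edgeR adjusted p = 2.66e-33). Sp5, a transcription factor induced by Wnt signals, ran the other way, at 38.3 and 34.9 CPM against 55.3 and 65.5 in Shh-only and 6.99 and 12.9 in Sox9-only cells, with log2 fold changes of -0.75 (SE 0.13, edgeR adjusted p = 5.03e-05) and 1.88 (SE 0.27, edgeR adjusted p = 4.6e-08). In cells with neither gene Sostdc1 was at 207 and 194 CPM and Sp5 at 14.51 and 27.2.

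Of 16 tested Wnt targets and feedback genes, 0 differed between double-positive and pooled single-positive cells, where 0.197% of all genes did. Against Shh-only cells Ccnd1, the cyclin of the G1 phase, was higher and Sp5 lower, where 0.244% and 0.244% of all genes were. Against Sox9-only cells Sp5, the Wnt effector Lef1 and the receptor Tnfrsf19 were higher, where 0.828% of all genes were. Lef1 was at 311 and 283 CPM in double-positive, 344 and 320 in Shh-only and 277 and 211 in Sox9-only cells, and its log2 ratio to Sox9-only was 0.17 in library 1 and 0.42 in library 2. Axin2, a standard Wnt target, was at 23.4 and 36.5 CPM against 38.3 and 45.9, and 19.7 and 15.1, and missed the threshold against both classes (edgeR adjusted p = 0.153 and 0.0753). The median log2 fold change of the 16 genes was -0.06 against the pool and -0.11 against Shh-only cells, beside medians of -0.003 and 0.005 for all genes tested. Among 11 tested Wnt ligands and secretion genes only Wnt6 was called, lower than in Sox9-only cells (298 and 247 against 331 and 318 CPM), with log2 ratios of -0.15 and -0.37. Of all genes 0.604% were lower there.

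Tgfb2 and Abcc4 had the same intermediate order as Sp5. Tgfb2, a growth factor of the early follicle, was at 82.6 and 86.8 CPM in double-positive cells, 112 and 112 in Shh-only and 27.3 and 24.2 in Sox9-only cells. It was lower than in Shh-only (log2 fold change -0.41, SE 0.10, edgeR adjusted p = 0.00965) and higher than in Sox9-only cells (1.69, SE 0.18, edgeR adjusted p = 1.02e-13). Abcc4, a membrane transporter, was at 33.4 and 34.1 CPM against 49.7 and 47.6, and 8.26 and 10.6. Of 19 tested Bmp and Tgfb genes, Tgfb2 and Bmp7 were higher and Fst, which encodes the activin and BMP antagonist follistatin, lower in double-positive than in Sox9-only cells. Of all genes 0.828% were higher and 0.604% lower. Fst was at 11.4 and 21.8 CPM against 33.7 and 28.7, with log2 ratios of -1.54 and -0.40.

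**Figure D4:**
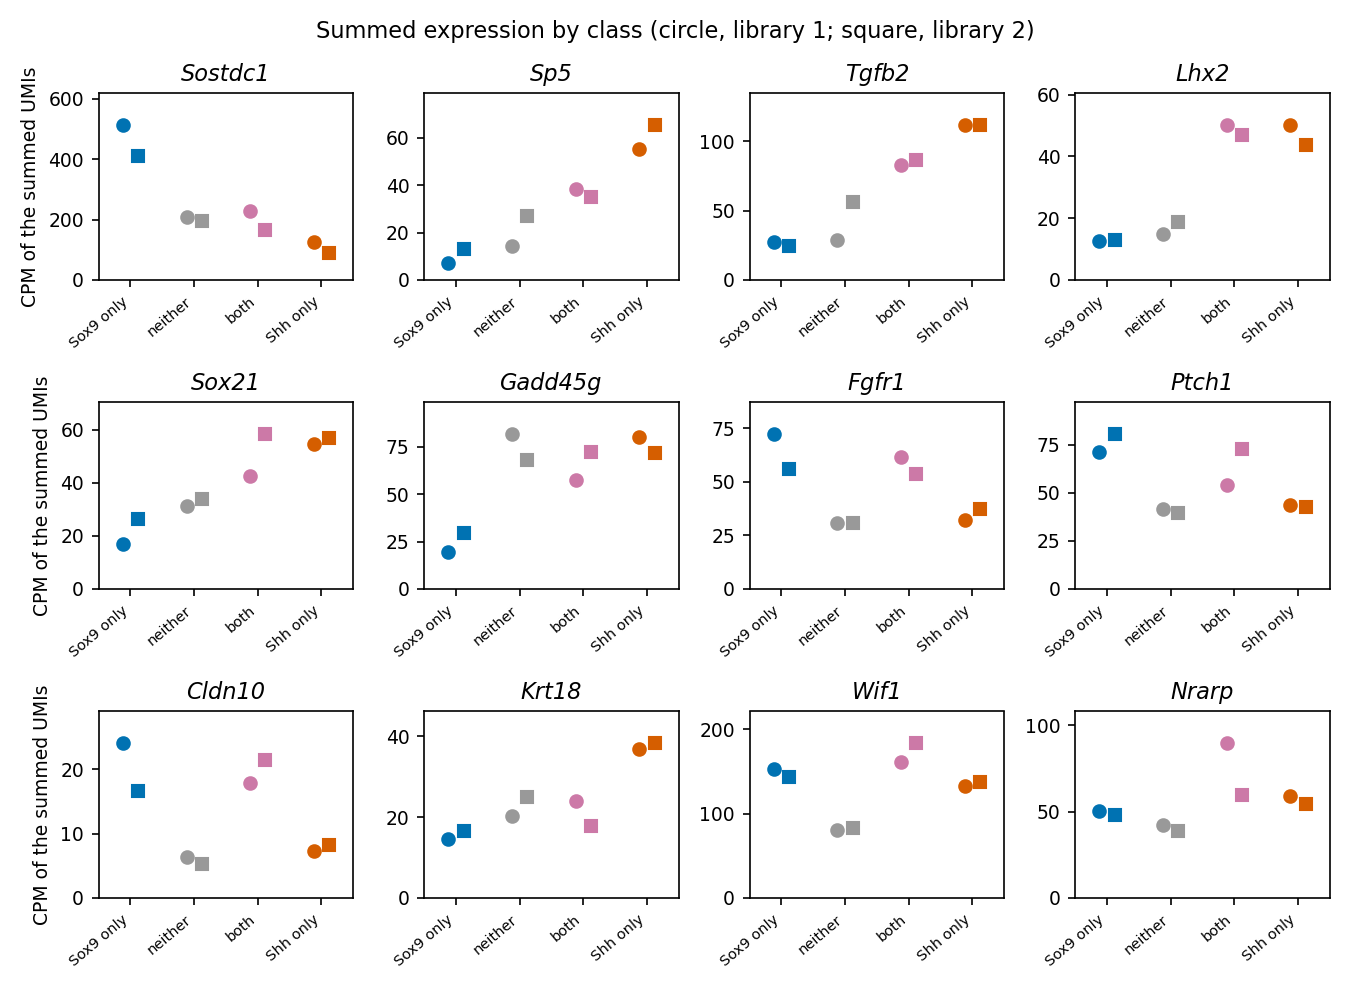
CPM of the summed UMIs (vertical axes, from 0) of 12 genes in the classes Sox9-only, neither gene, double-positive and Shh-only, 1 point per placode-enriched library. Sostdc1, Sp5 and Tgfb2 have double-positive cells between the single-positive classes, Lhx2, Sox21 and Gadd45g above Sox9-only cells, Fgfr1 and Cldn10 above and Krt18 below Shh-only cells, and Wif1 and Nrarp above both.

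The follicle fate factors Lhx2, Sox21 and Sox4 were higher in double-positive than in Sox9-only cells. Lhx2 (chromosome 2, 38339281 to 38369733, plus strand, GRCm38) was at 50.3 and 46.8 CPM in double-positive cells, 50.3 and 43.7 in Shh-only and 12.7 and 12.9 in Sox9-only cells, and at 14.9 and 18.8 in cells with neither gene. Its log2 fold change was 0.04 (SE 0.13, edgeR adjusted p = 0.98) against Shh-only and 1.92 (SE 0.23, edgeR adjusted p = 5.99e-11) against Sox9-only cells. Sox21, a SOX factor, was at 42.8 and 58.6 CPM against 54.5 and 57.1, and 17.2 and 26.5. Sox4, another SOX factor, was at 1296 and 1236 CPM against 1429 and 1231, and 1029 and 916. For Sox21 and Sox4 double-positive cells lay between the classes in library 1 and just above Shh-only cells in library 2. Of 18 tested fate factors these 3 were higher than in Sox9-only cells and 0 were lower, where 0.828% and 0.604% of all genes were, and 0 of the 18 were called against Shh-only cells, where 0.487% of all genes were.

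The Hedgehog response genes Ptch1, Gli1 and Gas1 had double-positive cells between the single-positive classes in both libraries. Ptch1 (chromosome 13, 63508328 to 63573598, minus strand, GRCm38), receptor and target of the signal, was at 54.3 and 72.9 CPM in double-positive cells, 43.8 and 42.8 in Shh-only, 71.2 and 80.9 in Sox9-only cells and 41.8 and 39.3 in cells with neither gene. It was higher than in Shh-only cells (log2 fold change 0.56, SE 0.12, edgeR adjusted p = 0.00176), with log2 ratios of 0.31 in library 1 and 0.77 in library 2, and was not called against Sox9-only cells (-0.24, SE 0.14, edgeR adjusted p = 0.563). The Ptch1 call against Shh-only cells was kept in 3 of 9 alternative settings and lost, among others, with DESeq2 and with thinned cells. Its log2 fold change stayed at 0.47 to 0.69 in these settings. Gli1 was at 22.9 and 29.3 CPM, against 18.4 and 21.0 in Shh-only and 32.4 and 35.5 in Sox9-only cells. Gas1, a co-receptor repressed by the signal in many tissues, was at 26.4 and 15.5 CPM against 18.9 and 6.95, and 36.2 and 22.7. In CPM double-positive cells were nearer the Shh-only value for all 3 genes in library 1 and nearer the Sox9-only value in library 2. Neither Gli1 nor Gas1 was called against either class, while both were lower in Shh-only than in Sox9-only cells (log2 fold change -0.78 with edgeR adjusted p = 0.00276, and -1.19 with edgeR adjusted p = 9.21e-06).

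The rest of the Hedgehog list did not pass the test in any comparison with double-positive cells. Of 17 members all were in the table, Shh was set aside, and Hhip and Scube2 had too few UMIs to be tested. Of the 14 tested, 0 differed from the pooled single-positive cells and 1, Ptch1, from Shh-only cells, where 0.197% and 0.487% of all genes did. The signal transducer Smo was at 44.8 and 41.2 CPM against 39.7 and 45.9 in Shh-only and 50.8 and 46.9 in Sox9-only cells. The median log2 fold change of the 14 was 0.10 against the pool, 0.11 against Shh-only and -0.21 against Sox9-only cells, beside -0.003, 0.005 and 0.001 over all genes tested.

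Basal keratins separated the classes as well. Krt5 was at 489 and 410 CPM in double-positive cells, 366 and 363 in Shh-only and 601 and 529 in Sox9-only cells, and was called against both (log2 fold change 0.29, SE 0.05, edgeR adjusted p = 4.96e-05, and -0.34, SE 0.06, edgeR adjusted p = 3.15e-06). Its log2 ratio to Shh-only was 0.42 in library 1 and 0.18 in library 2. Krt15, a keratin of basal and later bulge cells, was at 283 and 203 CPM against 231 and 189, and 453 and 266. Krt14 was at 1939 and 1604 CPM against 1798 and 1690, and 2123 and 1936, with log2 ratios to Sox9-only of -0.13 and -0.27. Krt5, Krt14 and Krt15 were lower than in Sox9-only cells, and the other 4 of the 7 basal markers, Trp63, Col17a1, Itga6 and Itgb4, were not called. Of all genes 0.604% were lower than in Sox9-only cells. Among 13 tested differentiation genes Cebpb, a factor of the differentiating epidermis, was higher than in Shh-only cells, at 79.6 and 52.7 against 53.5 and 33.8 CPM. Of all genes 0.244% were higher there.

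No listed S, G2 or M phase gene was called between double-positive and Shh-only cells, and 8 were called against Sox9-only cells. Of 30 tested S phase genes, 0 were called against Shh-only cells (0.487% of all genes) and 4 were lower than in Sox9-only cells (0.604% of all genes): Pcna, Ccne1, Ccne2 and Rrm2. Rrm2, a subunit of ribonucleotide reductase, was at 132 and 103 CPM in double-positive cells, 123 and 103 in Shh-only and 221 and 133 in Sox9-only cells, with log2 ratios to Sox9-only of -0.74 and -0.38. The median of the 30 against Sox9-only was -0.24, beside 0.001 for all genes. Of 36 tested G2 and M phase genes, Ube2c, Cenpf, Cenpa and Hmmr were higher than in Sox9-only cells (0.828% of all genes) and 0 were lower. The log2 ratios to Sox9-only were -0.43 and -0.19 for Pcna, the replication clamp, and 0.74 and 0.30 for Hmmr. Ube2c, which drives mitotic exit, was at 477 and 448 CPM against 507 and 374, and 334 and 318. With cells thinned to 10000 UMIs the direction against Sox9-only changed for Pcna, Ccne1, Ccne2, Ube2c, Cenpf and Cenpa, none of them then called (log2 fold changes 0.14, 0.42, 0.41, -0.16, -0.09 and -0.10).

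Part of the calls in the other lists is given here. The actomyosin, cell cycle inhibitor, ectodysplasin and NF-kB, and Wnt antagonist lists held further calls. Of all genes 0.197% were called against the pool and 0.487% against Shh-only cells. Against Sox9-only cells 0.828% of all genes were higher and 0.604% lower. The guidance receptor Robo2 was the 1 of 32 tested guidance and migration genes called, at 10.95 and 20.2 CPM in double-positive cells against 28.8 and 27.1 in Shh-only and 10.8 and 13.6 in Sox9-only cells, with log2 ratios to Shh-only of -1.37 and -0.41. Of 19 tested adhesion genes Epcam was higher than in Sox9-only cells (570 and 588 against 496 and 499 CPM). Of 19 tested glycolysis genes Ldha, Gapdh and Pfkl were lower than in Sox9-only cells. Ldha was at 399 and 486 CPM in double-positive cells against 549 and 541 in Sox9-only cells, with log2 ratios of -0.46 and -0.16. Of 15 tested dissociation and stress genes 0 were called in any of these comparisons, and their summed level was 1310 and 1131 CPM in double-positive cells against 1123 to 1261 in the single-positive classes.

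A class exactly between the single-positive classes on the log2 scale would not differ from their equally weighted midpoint on that scale. An equal mix of the 2 classes in CPM would lie above it for every gene that differs between them. A call of a higher gene therefore does not by itself set double-positive cells apart from such a mix. Against it 23 of 10262 genes (0.224%) were called, 20 (0.195%) higher and 3 (0.0292%) lower in double-positive cells, and 686 had an unadjusted p under 0.05. Of the 20, 10 stood above both single-positive classes in both libraries and 2 between them. They were Lhx2, Wif1, Nrarp, Zfp750 and Malat1, described above, with Calca, Ltbp1, G2e3, Tuba1c and Hn1. Over all genes 11.5% stood above both and 14.7% between, and the test itself favours genes of the first kind. None of the 23 calls was made by DESeq2 (70 genes at an unadjusted p under 0.05), 1 by edgeR without the library as a block and 0 with thinned cells.

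Lhx2 had the lowest adjusted p against the midpoint, with a log2 fold change of 0.98 (SE 0.16, edgeR adjusted p = 1.36e-05). Its log2 fold change was 0.49 with thinned cells and 0.54 at a placode score of 8 or more, and it was called in neither, nor by DESeq2. Calca, which encodes the neuropeptide calcitonin gene-related peptide, was at 12.4 and 9.51 CPM in double-positive cells, 6.49 and 5.31 in Shh-only and 1.91 and 1.51 in Sox9-only cells (1.75, SE 0.37, edgeR adjusted p = 0.00672). Ltbp1, a binding protein of latent TGF-beta, was at 14.4 and 16.6 CPM against 8.51 and 8.96, and 6.99 and 6.80 (0.99, SE 0.25, edgeR adjusted p = 0.0498). G2e3 was at 35.3 and 36.9 CPM against 29.2 and 22.5, and 25.4 and 15.1, with log2 ratios of 0.37 and 0.98 in the libraries. Calca was no longer higher with thinned cells (log2 fold change -0.02). The 3 genes lower than the midpoint were Ncs1, Dcn, with log2 ratios of -0.07 and -0.23 in the libraries, and Sparc. The matrix gene Sparc was at 172 and 183 CPM against 169 and 174 in Shh-only and 252 and 297 in Sox9-only cells.

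A further contrast asked whether the level in double-positive cells equals the sum of the 2 single-positive differences from cells with neither gene, on the log2 scale. Here 27 of 10262 genes (0.263%) were called, 18 (0.175%) above that sum and 9 (0.0877%) below it, with 782 at an unadjusted p under 0.05. DESeq2 made 2 of the 27 calls, edgeR without the library as a block 0 (330 genes at an unadjusted p under 0.05) and edgeR with thinned cells 1. Of the 18 genes above the sum, 6 stood above both single-positive classes in both libraries, where 11.5% of all genes did, and 4 between them. Fabp5, a fatty acid-binding protein, was at 665 and 644 CPM in double-positive, 604 and 609 in Shh-only, 783 and 809 in Sox9-only cells and 1031 and 1005 in cells with neither gene (deviation 0.50, SE 0.06, edgeR adjusted p = 3.08e-11). Ripply3 was at 36.3 and 29.7, 32.4 and 24.5, 27.3 and 18.1, and 43.2 and 40.7 CPM in the same order (1.12, SE 0.25, edgeR adjusted p = 0.00882).

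Pthlh, which encodes the parathyroid hormone-related peptide, showed the reverse of that pattern. It was at 169 and 164 CPM in double-positive, 168 and 142 in Shh-only and 132 and 141 in Sox9-only cells but at 75.4 and 71.7 in cells with neither gene (deviation -0.75, SE 0.13, edgeR adjusted p = 6.85e-05). Krt17, a keratin of placodes and follicles, was at 1145 and 1039, 1120 and 915, 1170 and 1062, and 862 and 761 CPM (-0.32, SE 0.05, edgeR adjusted p = 1.45e-05). S100a6 was at 39.3 and 36.9, 53.5 and 58.5, 38.8 and 22.7, and 17.0 and 15.7 CPM (-1.47, SE 0.26, edgeR adjusted p = 8.6e-05). Gadd45g, a growth arrest gene, was the exception with a low Sox9-only class, at 57.7 and 72.1, 80.1 and 72.1, 19.7 and 29.5, and 82.1 and 67.9 CPM (1.46, SE 0.21, edgeR adjusted p = 5.81e-07), and with thinned cells its deviation was -0.08. Of the genes named here Ripply3 and Pthlh stood above both single-positive classes in both libraries.

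Leaving out the less certain cells kept some of these differences and lost others. With at least 2 UMIs required of each detected gene, 22 and 18 double-positive cells remained, and 6 genes differed from the pool, 3 of them among the 20. With a placode score of 8 or more, 51 and 74 double-positive cells remained and 2 genes differed, both among the 20. Without doublet calls and the top 5% of UMIs 17 genes differed, 12 of them among the 20. With cells of 15000 to 30000 UMIs only, 20 genes differed, 9 of them among the 20. Sostdc1 against Sox9-only and Tgfb2 against Sox9-only kept direction and call under all 9 alternative settings of the test.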

How the data were processed

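Each deposited table holds whole-number UMI counts by gene and cell, per the file headers. Cell Ranger, Seurat and the mm10 build appear, with no version, in the submitters' processing notes, and no cell filter or annotation was stated. The number ending each barcode was taken as the library number, and a swap would change only names. CPM were computed on UMIs summed per library and class, since cells are not replicates. edgeR 4.0.16 (R 4.3.3; quasi-likelihood, TMM, filterByExpr, library as a block because all classes come from the same 2 libraries, Benjamini-Hochberg adjustment, threshold 0.05) was the main test and was tested on simulated data. In those simulated data edgeR recovered 15.2%, 17.2% and 0% of 1.5-fold changes in the pooled, midpoint and additivity contrasts. Of 2-fold changes it recovered 71.7%, 70.4% and 26.6%, so a gene that was not called may still differ. SE is the absolute log2 fold change over the root of F. DESeq2 1.42.0 was an alternative. The others were RLE factors, no low-count filter, no block, thinning to 10000 UMIs, cells of 15000 to 30000 UMIs, 2 or more UMIs, a placode score of 8 or more, doublet calls (scrublet in scanpy 1.11.5, rate 0.05) and the top 5% of UMIs left out, each library left out, and double-positive and pooled sums alone.

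Axis genes had a CPM ratio of at least 2 and 30 UMIs in the single-positive sums. Genes were named by rule: for the pooled, midpoint and additivity contrasts the 12 largest (6 for additivity) called changes in each direction with the same sign in both libraries and 10 CPM in the higher group, for Shh-only against Sox9-only the 8 largest, all Hedgehog genes, and up to 4 members of each other list with the lowest p. Ccnd1, Col17a1, Hmmr, Hn1, Itga6, Krt17, Pfkl and Trp63 were named after their values were seen. Members and lists were chosen with earlier results of these data known. Coordinates are from GENCODE on GRCm38, the assembly that mm10 names. Melanoblast, endothelial, erythroid, Schwann and nerve markers were each at most 15.1 CPM in every class; of 6 immune markers 2 were in the table, and their sum was 126 and 132 CPM in double-positive and 102 to 151 in single-positive cells. Of the genes this rule names, 2 are not reported here.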

Additional observations from a re-analysis of the deposited data

Results flagged for a closer look

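Cells with both Shh and Sox9 also occurred below the placode score of 4, outside every comparison above. There were 70 such cells among 916 in library 1 (7.64%) and 76 among 952 in library 2 (7.98%). They were listed because they are a signal in cells that the comparisons did not use, and 10 and 14 of them had a score from 3 up to 4.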

How the results depend on the processing

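Counts of genes higher and lower are given below in the order pooled single-positive, midpoint, Shh-only, Sox9-only, Shh-only against Sox9-only, and additivity, where they moved by over 1.5 times. The classes share libraries, and without the library as a replicate block the counts were 0 and 0, 1 and 0, 0 and 0, 13 and 3, 51 and 33, and 0 and 0. DESeq2 gave 0 and 0, 0 and 0, 1 and 0, 20 and 13, 54 and 46, and 2 and 0. With cells thinned to 10000 UMIs they were 3 and 1, 0 and 1, 13 and 14, 10 and 10, 105 and 100, and 1 and 0. With 2 or more UMIs required they were 4 and 2, 4 and 2, 14 and 7, 27 and 9, 115 and 121, and 4 and 2. With a placode score of 8 or more they were 1 and 1, 5 and 2, 1 and 4, 29 and 34, 92 and 100, and 4 and 9. With cells of 15000 to 30000 UMIs they were 13 and 7, 6 and 0, 11 and 12, 31 and 23, 95 and 93, and 2 and 1. Without a low-count filter the pooled counts were 7 and 19 and the midpoint lower count 5, as with RLE factors. Without doublet calls and the deepest cells the pooled lower count was 4, the midpoint higher count 12 and the additivity counts 5 and 5. Thinned cells also gave axis positions of 37.0% and 60.6% and Sox9 shares of 18.1%, 20.8%, 16.5% and 23.1%. The cause of these shifts was not tested; the thinned, stricter and banded sets hold fewer cells.

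Directions changed mostly with thinned cells, in log2 fold change and without a call. Cxcl10 was at -6.63 against the pool, -6.42 against the midpoint and -5.58 against Shh-only cells, fitted values that are no bound. Against the midpoint Calca was at -0.0232, Gadd45g -0.48, S100a9 -0.17, Tuba1c -0.22, Ube2c -0.10 and Cenpf -0.0846. Against Sox9-only cells Nrarp was at -0.0008, G2e3 -0.0906, Tuba1c -0.31, Tnfrsf19 -0.0131, Ccne2 0.41, Ccne1 0.42, Pcna 0.14, Ube2c -0.16, Cenpf -0.0929 and Cenpa -0.10. Gm42418 was at 0.0407 against the pool and 0.0015 against Shh-only, and additivity was -0.08 for Gadd45g and 0.0798 for G3bp2. Between Shh-only and Sox9-only cells Pcna was at 0.0251, Ube2c -0.12 and Cenpf -0.0166, and with 2 or more UMIs Cxcl10 0.31 and Ube2c -0.062. At a placode score of 8 or more Malat1 was at -0.019 against the pool and -0.0098 against the midpoint. Without library 2, Cxcl10 between Shh-only and Sox9-only was 1.25, and without library 1 it was -4.24; the first was the 1 reversal among 404 values from leaving out a library; such values have no test, as no residual degrees of freedom remain. Of 202 gene results past the threshold, 17 stayed past it in every setting of the test.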
